A study of Drosophila melanogaster x Drosophila simulans with 3 samples.

Results

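Fused regions, counting units made by joining exons that overlap, were set against single regions, units made of one exon, in a hybrid of 2 fly species; 2778 of 60040 exonic regions were fused and within the limits below. In many fly genes the same stretch of DNA is used as an exon in more than one way, because transcripts start, splice or end at different places within it. An exon whose boundaries are shared by all its transcripts can be counted on its own, whereas exon versions that overlap share sequence, so that most reads cannot be given to one version. Such versions are therefore joined into one counting unit, which sums the output of several transcripts and sometimes of neighbouring genes. The tables mark the kind by the first letter of the region identifier.

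Of 60040 exonic regions, 6697 were fused and 53343 single. Fused regions were kept when the region had the same length in both species, a length within set limits (82 to 1493 bases in the regions kept) and an identity between the species over 93% and under 99%. These limits left 2778 fused regions. Of the other fused regions, 2874 differed in length between the species, 482 of equal length lay outside the length limits and 563 outside the identity limits. The same limits left 32991 single regions. The fused regions kept had a median length of 416 bases (quartiles 232 and 726) and a median identity of 96.5%, against 264 bases (quartiles 165 and 492) and 96.7% in the single regions.

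The RNA came from heads of virgin female F1 hybrids, aged 1 to 1.5 days, with mothers of the Drosophila melanogaster strain Berlin and fathers of the Drosophila simulans strain C167.4. There was 1 group with 3 replicates, each a pool of 200 flies from 2 bottles, kept at 25 °C and sequenced in its own lane as read pairs of 54 bases. All 3 libraries thus share 1 cross direction, so the effect of species and that of the transmitting parent cannot be told apart, and a pool of flies stands for the mean of many individuals. The libraries held 26406916, 26601075 and 29004108 reads, of which 18304480, 18157586 and 20364709 were assigned to an allele, and replicate 2 stood apart, with 31.0% of its reads in exact-match classes against 63.7% and 57.3% in replicates 1 and 3. The tables pair no region with a gene, so heads could not be checked by marker genes.

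The label of the regions was first set against an annotation. Identifier numbers were found to run along the chromosomes, so each run of 3 neighbouring lengths was searched among 69524 blocks of overlapping or touching exons of the BDGP6 annotation. Of 60038 runs, 19175 matched in order at 1 place, and 293 matched when the order of the 3 lengths was reversed. Among the fused regions kept, 1147 were placed in this way, and 852 of them (74.3%) fell on blocks with more than 1 exon form. Among the single regions, 19221 were placed, and 533 (2.77%) fell on such blocks. The labels and the annotation thus differed for 295 placed fused regions, and the other fused regions were not placed. A placement by lengths is no match of sequence, it was made after the data were seen, and no gene is named from it.

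The 852 placed fused regions with more than 1 exon form were compared in structure with the 18688 placed single regions with 1 form. Most fused regions joined few versions: 635 had 2 exon forms, 154 had 3 and 63 had 4 or more, up to 9. In 642 all exons lay on 1 strand. Of these, 357 differed at the 5′ end only, as an alternative splice acceptor or start site would give, 140 differed at the 3′ end only, as an alternative splice donor or end site would give, and 145 differed at both ends. The remaining 210 joined exons of opposite strands. Fused regions lay less often inside transcripts, with 44.1% holding neither a transcript start nor an end, against 90.2% of single regions. They were coding over their full length in 32.7% of cases, against 87.2%. The genes of a block, summed where there was more than 1, had a median of 4 annotated transcripts, against 2. A block with more than 1 exon form needs at least 2 transcripts, so this difference is partly set by the choice of regions. Placement needs neighbours unchanged between annotations, so these shares describe the placed regions and not the members as a whole.

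Fused regions were read more than single regions of the same length and identity. Levels are given as RPKM, reads scaled to region length and library total. The median level was 7.20, 7.32 and 7.77 RPKM in fused regions in replicates 1, 2 and 3, against 5.15, 5.27 and 5.83 in single regions. The level averaged 7.43 ± 0.303 in fused and 5.42 ± 0.366 in single regions (SD, n = 3 libraries). All 3 fused values lay above all 3 single values. In whole heads, fewer cells of a type and less RNA per cell cannot be told apart. Single regions were weighted to the numbers of fused regions in classes of length and identity, after which the median lengths were 416 and 415 bases and the median identities 96.5% and 96.5%. On the scale of log2(level + 0.1), the difference of medians was 0.48, 0.47 and 0.41, with a mean of 0.45 ± 0.04 (SD, n = 3). The two-sided exact sign-flip permutation test over 3 libraries gave p = 0.25, the smallest p that 3 libraries allow, so this and the other differences between the kinds of region could not pass a threshold.

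The ratio between the kinds was largest at the low end of expression among the quantiles compared. The lower quartile of the level was 1.41, 1.42 and 1.58 in fused regions, against 0.362, 0.364 and 0.387 in single regions. The upper quartile was 19.5, 19.5 and 20.7 in fused regions, against 15.2, 15.6 and 17.0 in single regions. The 95th percentile was 101, 107 and 108 RPKM in fused regions, against 67.7, 67.5 and 74.9 RPKM in single regions. Fused over single, this was 1.49, 1.59 and 1.44-fold at the 95th percentile, more than the 1.29, 1.26 and 1.22-fold at the upper quartile. Fused regions without a read made up 9.79%, 9.58% and 9.61% in the 3 libraries, against 16.2%, 15.9% and 15.4% of single regions. Over the 3 libraries, 174 of the 2778 fused regions (6.26%) had no read at all, against 10.5% of matched single regions. Among regions with a mean of at least 1 read, the log2 difference of medians was 0.19, less than the 0.45 over all regions. The authors' coverage signal, whose origin is not given in the sources used here, was also higher in fused regions, with medians of 26.2 in the values given for Berlin and 40.7 in those for C167.4, against 18.5 and 31.1 in matched single regions.

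The higher level was mainly found where the species' sequences differed more. At 93% to 94% identity the 195 fused regions had median levels of 2.83, 3.12 and 3.00 RPKM, against 0.797, 0.796 and 0.842 in 1862 single regions. At 94% to 95% the 333 fused regions had 4.47, 4.54 and 5.21 RPKM, against at most 1.43 RPKM in single regions in any library. The log2 differences there were 1.76 ± 0.08 and 1.75 ± 0.04 (SD, n = 3), or about 3.38-fold and 3.37-fold. At 95% to 96% the difference was 0.98 ± 0.07. In the 3 classes from 96% to 99% it was 0.28 ± 0.03, 0.21 ± 0.07 and 0.20 ± 0.05. Levels went up with identity in both kinds, more steeply in single regions. At 98% to 99% the 392 fused regions had medians of 10.8, 11.1 and 11.8 RPKM, against 9.13, 9.46 and 10.7 RPKM in single regions. The lowest difference in any library was 1.71 in the lowest 2 identity classes and the highest was 0.30 in the top 3, so these classes did not overlap.

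**Figure D1:**
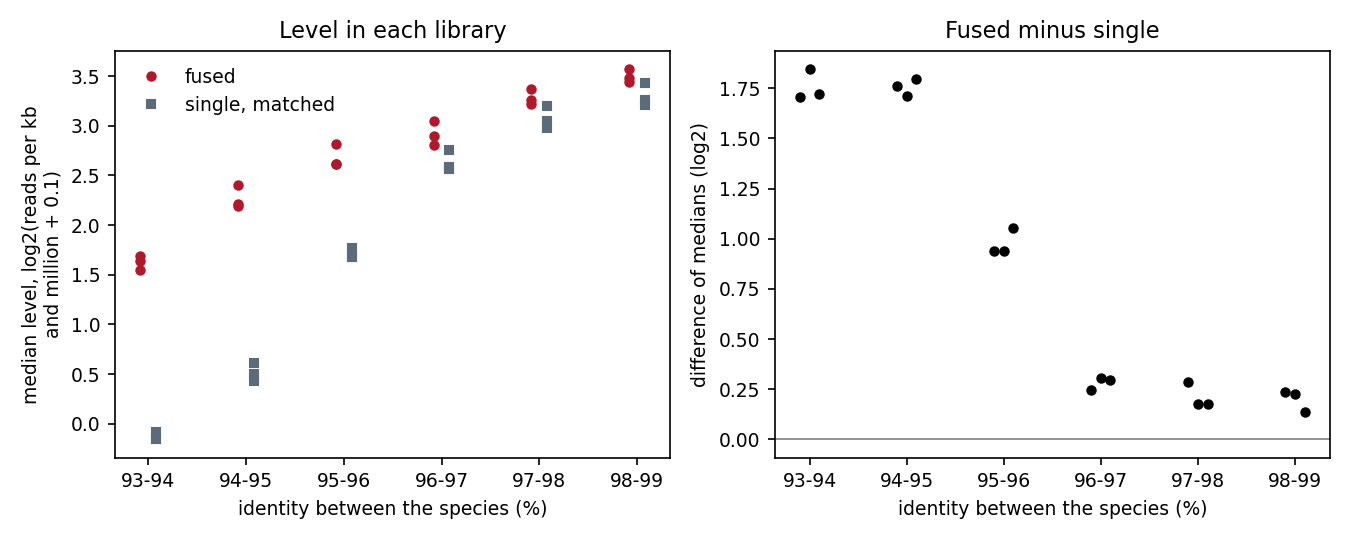
Left, median level of fused (circles) and matched single (squares) regions in each of the 3 libraries by class of identity between the species, as log2(RPKM + 0.1). Right, the difference of medians, fused minus single, 1 point per library: it is near 1.76 at 93% to 94% and 0.20 at 98% to 99% identity.

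By length the difference was positive in each library in every class above 200 bases, with class means from 0.13 to 0.73. It was 0.68 ± 0.07 in the 523 fused regions of 401 to 600 bases and 0.73 ± 0.05 in the 446 of 601 to 900 bases (log2, SD, n = 3). In the classes up to 200 bases it had no single direction, with a highest class mean of 0.38 ± 0.04. In the 206 fused regions of 161 to 200 bases it was negative in each library, at -0.34, -0.30 and -0.46. In the 152 of 81 to 120 bases it was -0.05 ± 0.10, within the spread between libraries. Just inside the upper length limit, 38 fused regions had median levels of 4.48, 5.07 and 5.11 RPKM, and 51 just outside it had 5.40, 6.07 and 6.24 RPKM. Just inside the lower identity limit, 77 fused regions had 3.17, 3.38 and 2.81 RPKM, and 71 just outside it had 2.34, 1.66 and 1.70 RPKM.

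The level also differed with the way exons overlapped. The 210 fused regions that joined exons of opposite strands were read most, with medians of 11.5, 10.7 and 12.1 RPKM, against 6.10, 6.27 and 6.97 in matched single regions, a log2 difference of 0.82 ± 0.08 (SD, n = 3). Whether counting used strand is not given in the sources used here, so reads of the overlapping genes cannot be told apart in these regions. Fused regions with differing 5′ ends had 7.65, 7.78 and 8.41 RPKM and stood above matched single regions by log2 differences of 0.23, 0.22 and 0.16. Those with differing 3′ ends (-0.05 ± 0.13) and with both ends differing (-0.02 ± 0.04) did not differ from single regions beyond the spread between libraries. That spread is taken over the same regions in each library, so it leaves out the variation between regions of a class. Regions with 4 or more forms had 9.30, 8.14 and 9.37, against 6.02, 6.12 and 6.95, and those with 3 forms had 7.01, 7.43 and 7.46, against 6.39, 6.55 and 7.33. No steady rise with the number of forms was seen, since the difference was 0.27 ± 0.03 with 2 forms, 0.11 ± 0.08 with 3 and 0.48 ± 0.12 with 4 or more. The 295 fused regions placed on blocks with 1 form went the other way, with medians of 3.95, 3.49 and 4.35, against 6.31, 6.47 and 7.22.

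**Figure D2:**
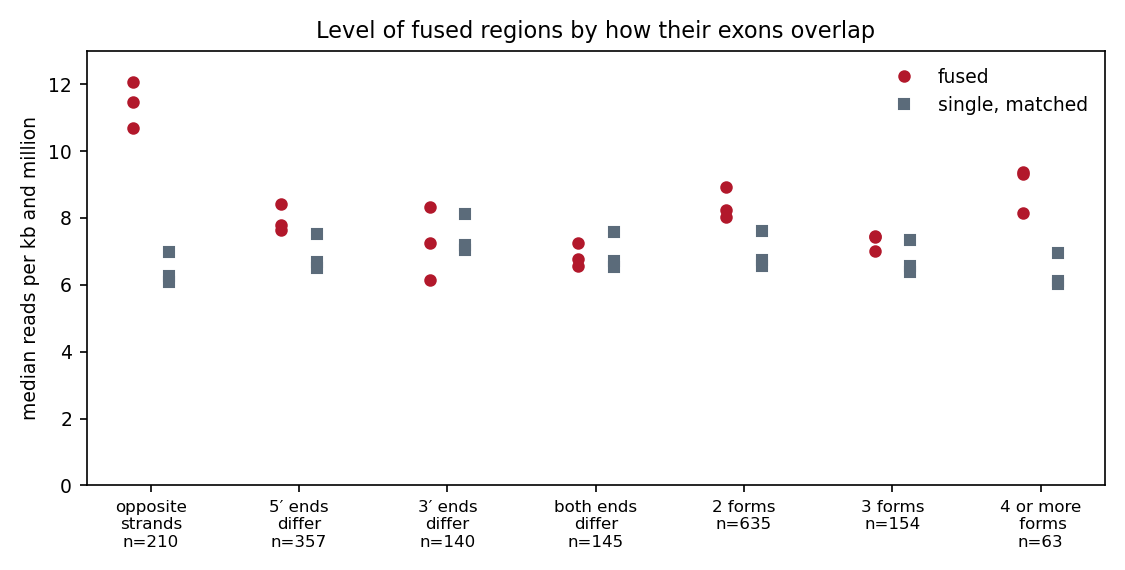
Median level in RPKM of placed fused regions (circles) and of single regions matched on length and identity (squares), 1 point per library, by strand, by which ends differ and by number of exon forms. The regions on opposite strands lie at 10.7 to 12.1, above their matched single regions at 6.10 to 6.97.

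The difference also varied with position in the transcript. On 1 strand of 1 gene, the 365 internal fused regions, which hold no transcript start or end, had levels of 7.85, 8.52 and 9.05, against 7.66, 7.86 and 8.80 in internal single regions, a log2 difference of 0.06 ± 0.05 (SD, n = 3). The 149 that held a transcript start had 5.52, 5.81 and 7.02, against 6.78, 6.94 and 7.89 in internal single regions, and were lower in each library, with log2 differences of -0.29, -0.25 and -0.17. Set against the 747 single regions that themselves held a start, whose medians were 0.249, 0.274 and 0.295, the same fused regions were higher by 4.05 ± 0.10 on that scale. Those single medians were near the 0.1 added before the log, so the size of this difference depends on that setting. The 63 fused regions that held a transcript end stood at 1.77 ± 0.07 above the 628 single regions with an end, and at -0.21 ± 0.12 against internal single regions. Set against internal single regions of genes with 2 or more transcripts, the internal fused regions were lower, with log2 differences of -0.27, -0.20 and -0.27. In each of these classes the sign of the difference depended on which single regions were used.

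Within genes, fused regions with all exons on the same strand were read less than single regions. Genes with a placed fused region were themselves read more: their 2989 single regions had median levels of at least 11.6 RPKM in each library, against 6.03, 6.20 and 6.93 in the 15536 single regions of the other genes. For 523 fused regions of 469 genes, the level was set against the median single region of the same gene. Regions that joined exons of opposite strands, the class read most, were not among them. The median log2 difference was -0.23, -0.19 and -0.23 in the 3 libraries, with a mean of -0.22 ± 0.02 (SD, n = 3; p = 0.25 in the exact sign-flip permutation test). The fused region was lower in 3 of 3 libraries in 245 cases (46.8%) and higher in 128 (24.5%). A single region set in the same way against the other single regions of its gene was lower in 29.4% and higher in 30.6% of 17330 cases. A level at least 2-fold lower in each library was found in 75 fused regions and one at least 2-fold higher in 16. No 2-fold share over single regions is given here, so these 2-fold counts show no excess or lack. The fused regions of this comparison were longer, with a median of 326 bases against 222, and length was not matched here.

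The within-gene difference was largest in fused regions that held a transcript start. In these 130 regions the median difference was -0.63, -0.56 and -0.63, and 85 were lower and 15 higher in 3 of 3 libraries. In 342 internal regions it was -0.16, -0.08 and -0.03, with 138 lower and 100 higher. In 51 regions that held a transcript end it was -0.19 ± 0.14 (SD, n = 3). The library medians of the start class did not overlap those of the internal class. No within-gene value is given here for single regions that hold a transcript start.

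**Figure D3:**
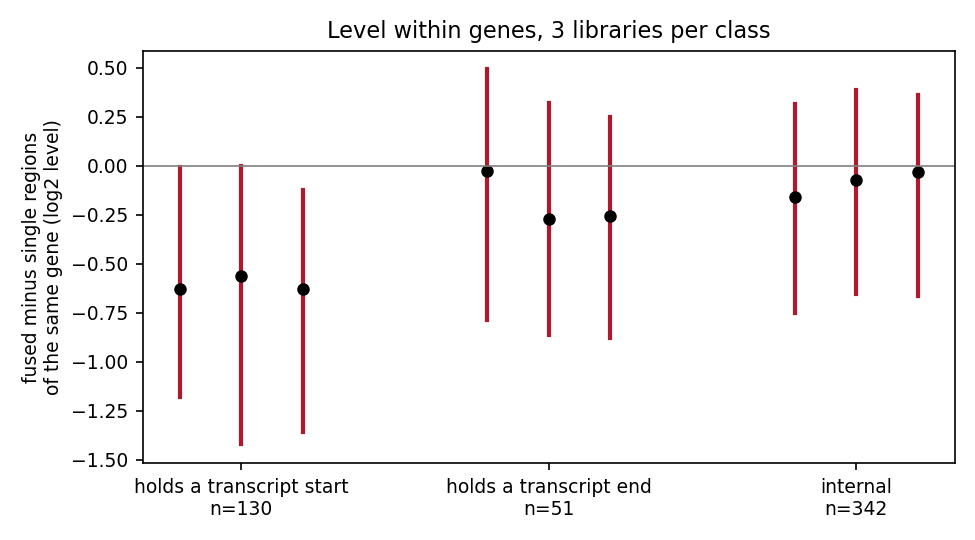
Difference in log2 level between a fused region and the median single region of its gene, by position of the fused region. Points are medians over regions and bars run from the lower to the upper quartile, with 1 bar for each of replicates 1, 2 and 3 from left to right. Medians lie near -0.61 for regions with a transcript start and between -0.16 and -0.03 for internal regions.

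The alleles were compared next, in those 1851 fused regions (66.6%) whose assigned reads averaged 20 or more in a library. The other 927 were too shallow to test. Matched single regions passed this limit in 59.8% of cases. The allele ratio is the log2 of D. melanogaster over D. simulans reads. Among all 33303 tested regions, edgeR's quasi-likelihood test called 35.6% imbalanced at an adjusted p under 0.05. Of the 1851 fused regions it called 717 (38.7%). D. melanogaster reads were in excess in 484 (26.1%), where the background was 23.4%, and D. simulans reads in 233 (12.6%), where it was 12.2%. Members and background thus differed by a few percentage points, mainly toward D. melanogaster. The D. melanogaster side made up 67.5% of the calls in fused regions and 55.7% with TMM scaling between alleles, against 65.8% over all regions without scaling. A control of genomic DNA is named in the protocols and was not used here, so read numbers were not corrected for how reads of each species are placed.

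Most fused regions were close to balance. The fitted ratio had a median of 0.11, quartiles of -0.22 and 0.44, and 5th and 95th percentiles of -0.72 and 1.23. The median over all tested regions was 0.09. Called fused regions had a median absolute ratio of 0.64, against 0.66 over all called regions. A call with a ratio of 2-fold or more was made in 174 fused regions, with the D. melanogaster allele higher in 135 and the D. simulans allele in 39. That is 9.41% of the 1850 that could be matched, where the background was 9.8%, or 6.91% toward D. melanogaster and 2.89% toward D. simulans. Of the calls, 696 had the same direction in 3 of 3 libraries, which rests on the same reads as the calls.

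**Figure D4:**
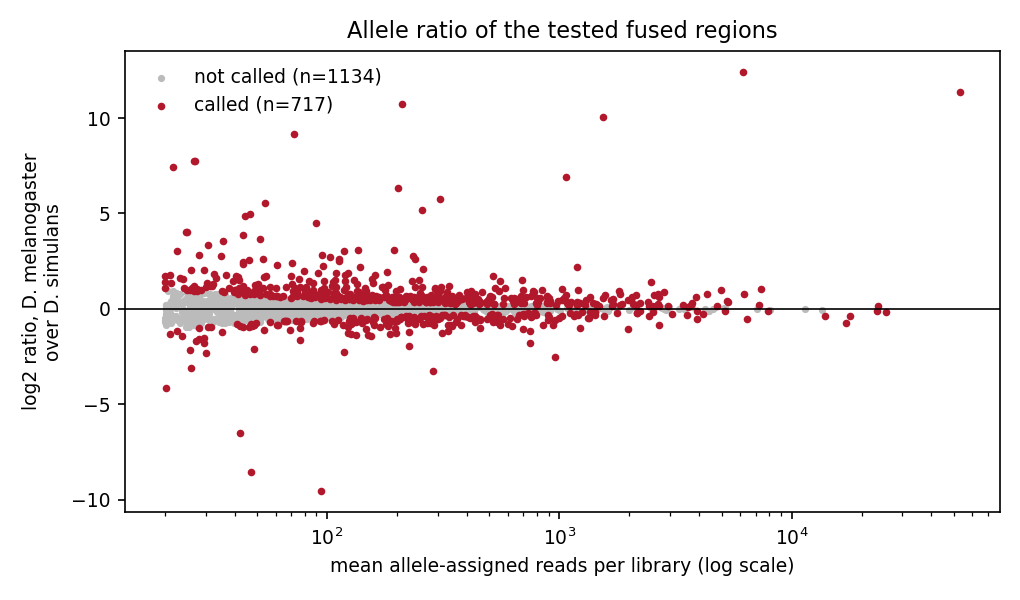
Fitted log2 ratio of D. melanogaster over D. simulans reads for the 1851 tested fused regions against the mean number of allele-assigned reads per library on a log axis. The 717 called regions are red and the others grey. Most points lie between -0.72 and 1.23, and the points above 10 include the mitochondrial regions described in the text.

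Fused regions were called more often than single regions, by 7.87 percentage points without matching and by less with it. The 1850 fused regions that could be matched were set against 18084 single regions weighted by length, identity and depth, with median depths of 125 and 126 reads. Calls were made in 38.8% of the fused regions (95% exact binomial interval 36.5% to 41.0%) and in 35.1% of single regions, a difference of 3.70 percentage points. It lay on the D. melanogaster side, with 26.2% (24.2% to 28.2%) against 22.1%, while the D. simulans side had 12.6% (11.1% to 14.2%) against 12.9%. The interval covers counting error of regions only, and regions of 1 gene are not independent. The difference was 2.27 points without replicate 1, 2.33 without replicate 3, 1.96 with reads placed on one genome only and 2.28 with TMM scaling. The DESeq2 Wald test, which called 347 of the fused regions (18.7%, against 17.8% over all regions), gave a difference of 1.40 points.

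The difference in calls was largest at 200 to 500 reads among the classes of depth. At 200 to 500 reads, 50.9% of 389 fused regions were called (45.8% to 56.0%), against 41.6% of single regions. At 100 to 200 reads the values were 37.3% (32.4% to 42.4%) and 32.0%. At 50 to 100 reads, 24.1% of 386 fused regions were called (19.9% to 28.7%), against 26.4%. In the deepest class, of 3000 or more reads, 69.0% of 42 fused regions (52.9% to 82.4%) and 65.6% of single regions were called. By identity, calls in fused regions ran from 45.3% of 106 regions at 93% to 94% to 29.1% of 247 at 98% to 99%, against 47.1% and 24.5% in matched single regions.

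**Figure D5:**
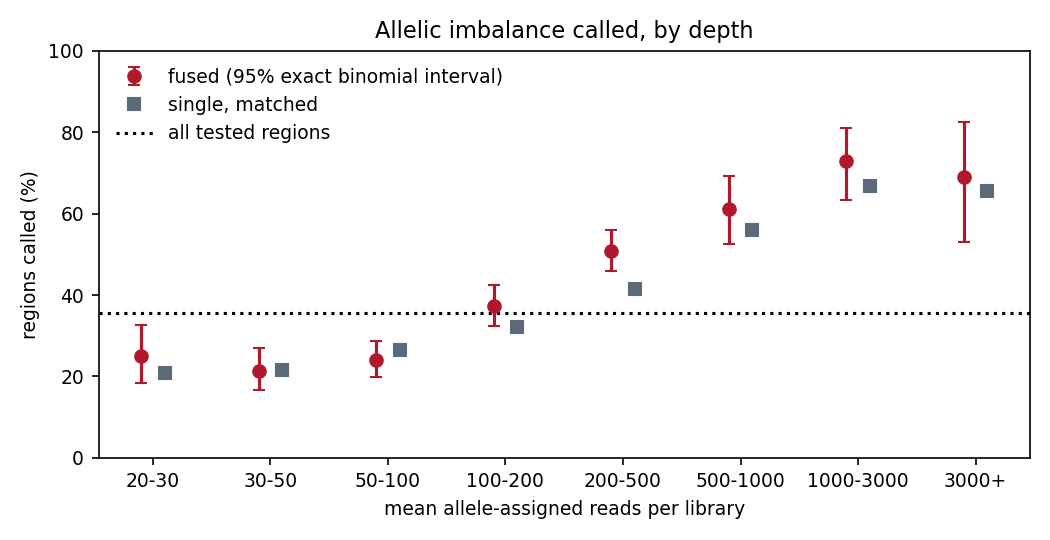
Percent of tested regions called imbalanced by class of mean allele-assigned reads per library, for fused regions (circles, with 95% exact binomial intervals over regions) and matched single regions (squares). The dotted line marks the 35.6% called over all tested regions. At 200 to 500 reads the fused interval, 45.8% to 56.0%, lies above the single value of 41.6%.

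The typical ratio hardly differed between the kinds. In replicates 1, 2 and 3 the median ratio of fused regions was 0.11, 0.09 and 0.09, against 0.09, 0.08 and 0.07 in matched single regions, a mean difference of 0.016 ± 0.0090 (SD, n = 3). The median absolute ratio was 0.38, 0.39 and 0.35, against 0.37, 0.37 and 0.34, a mean difference of 0.016 ± 0.0085. Both differences were above 0 in each library, with p = 0.25 in the exact sign-flip permutation test. The placed regions did not share 1 direction of the median ratio difference. It was -0.00069, -0.030 and -0.015 in the 852 on blocks with more than 1 form, and 0.06, 0.10 and 0.06 in the 295 on blocks with 1 form, over those deep enough to test. A region's own ratio varied between libraries with a median SD of 0.26 in fused and 0.26 in single regions.

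Pooled over regions, fused regions held more D. melanogaster reads, but not when regions placed in the mitochondrial genome were left out. The D. melanogaster share of their assigned reads was 55.7%, 54.1% and 54.3%, against 53.2%, 52.8% and 52.5% in matched single regions. Of the tested fused regions, 3 were placed in the mitochondrial genome by their run of lengths, and so were 3 single regions. The mitochondrial genome passes through the mother, who was D. melanogaster here. The 3 fused regions held 71350, 48800 and 62201 D. melanogaster reads, against 16, 28 and 23 D. simulans reads. Without the regions placed there, the share in fused regions was 51.4%, 51.2% and 51.2%, against 52.0%, 51.8% and 51.7% in single regions, so that fused regions were the lower in each library, with a mean difference of -0.60 percentage points.

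The deepest of the mitochondrial members was F7_SI, a region of 756 bases with 96.16% identity. In the 3 libraries it had 62413, 43749 and 53005 D. melanogaster reads, against 14, 27 and 19 D. simulans reads. The share of D. melanogaster reads was thus 99.96% ± 0.0200 (SD, n = 3), and reads placed on both genomes gave the same side at 99.94%. The log2 ratio was 11.36 ± 0.07 (SE), but it was 11.03 without replicate 1 and 11.76 without replicate 2. F7_SI was also the fused region with the most reads. A member of 419 bases had 7198, 3845 and 7525 D. melanogaster reads, against 1, 0 and 2 D. simulans reads, and one of 1213 bases had 1739, 1206 and 1671, against 1, 1 and 2. Another member placed there, of 264 bases, was too shallow to test, with 7, 8 and 13 D. melanogaster reads, against no D. simulans read.

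The other 4 large ratios toward D. melanogaster rested mostly on reads placed on one genome only. So did that of F7_SI, with 102928 D. melanogaster reads placed on one genome and 56239 on both. Among regions with at least 100 assigned reads and at least 4 of each allele in every library, the next after F7_SI toward D. melanogaster was a region of 315 bases and 95.87% identity, with 1018, 966 and 1190 D. melanogaster reads, against 6, 9 and 11 D. simulans reads. It had only 25 reads placed on both genomes, 14 of them D. melanogaster and 11 D. simulans. A region of 1042 bases and 94.05% identity had 279, 300 and 320 D. melanogaster reads, against 4, 5 and 7, and kept its side with a share of 96.1% among reads placed on both genomes. Regions of 1237 and 265 bases followed, with log2 ratios of 3.09 ± 0.19 and 3.08 ± 0.22 (SE). Among reads placed on both genomes, the region of 1237 bases kept its side, at 78.6% D. melanogaster. In the region of 265 bases these reads were near balance, at 51.2% D. melanogaster.

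Toward D. simulans, the largest ratio under the same read limits was that of F15919_SI, a region of 1176 bases and 93.96% identity. In the 3 libraries it had 30, 24 and 28 D. melanogaster reads, against 257, 277 and 244 D. simulans reads. The log2 ratio was -3.24 ± 0.16 (SE), and edgeR's adjusted p was 7.4e-73. Its reads placed on both genomes lay on the other side, with 62 D. melanogaster and 43 D. simulans reads. A region of 516 bases and 94.77% identity did not depend on placement in this way. It had 148, 138 and 144 D. melanogaster reads, against 979, 818 and 661 D. simulans reads, and the D. melanogaster share was 14.6% among reads placed on both genomes and 15.3% among reads placed on one. The same held for a region of 198 bases and 97.98% identity, with 159, 133 and 207 D. melanogaster reads, against 615, 459 and 661, and shares of 21.9% and 27.3%. The other members of this list, of 1374 and 308 bases, had log2 ratios of -2.27 ± 0.22 and -1.92 ± 0.15 (SE). The ratio of the first was -2.74 without replicate 1 and -1.75 without replicate 2. In that of 1374 bases the few reads placed on both genomes lay on the other side, with 29 D. melanogaster and 5 D. simulans reads.

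A few fused regions had no read of one allele: 5 lacked D. simulans reads and 2 lacked D. melanogaster reads. The deepest of the first, of 127 bases, had 246, 150 and 236 D. melanogaster reads and no D. simulans read, which is at least 211-fold higher against a floor of 3 counts over the 3 libraries. The others with the most reads, of 116 and 703 bases, were at least 72.3-fold and 27.0-fold higher by the same floor. The D. simulans regions, of 1113 and 177 bases, had 112, 75 and 96 reads and 45, 42 and 54 reads, at least 94.3-fold and 47.0-fold over the floor. No read of these D. simulans regions was placed on both genomes, nor was any of the D. melanogaster regions of 127 and 116 bases. With less complete cases counted too, a D. melanogaster share of 98% or above was found in 12 of the 1851 tested fused regions and one of 2% or below in 3, against 157 and 31 of 18834 tested single regions.

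After F7_SI, the most abundant fused regions had small ratios. F7744_SI, of 309 bases and 98.06% identity, had 11141, 11354 and 13224 D. melanogaster reads, against 12800, 13368 and 14211 D. simulans reads. Its D. melanogaster share was 46.9% ± 1.18 (SD, n = 3), and its log2 ratio was -0.18 ± 0.04 (SE; edgeR adjusted p of 5.9e-06, and 0.23 without the block). In a region of 402 bases 52.6% ± 1.22 of reads were D. melanogaster (SD, n = 3). Its log2 ratio of 0.15 ± 0.04 (SE) was 0.06 and not called with TMM scaling, and -0.15 with reads placed on one genome only. A region of 1359 bases had a share of 47.7% ± 0.0965, and one of 743 bases a share of 43.9% ± 0.526 (SDs over n = 3). The next called region toward D. melanogaster by reads had 511 bases and 94.72% identity. It had 4531, 5347 and 4992 D. melanogaster reads, against 2247, 2512 and 2568 D. simulans reads, with a log2 ratio of 1.02 ± 0.04 (SE), on the same side with either kind of placement.

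Of the 150 fused regions with a mean of 1000 or more assigned reads, those nearest to balance were examined. In the nearest, of 456 bases, the D. melanogaster allele had 874, 700 and 1094 reads, against 865, 720 and 1068 D. simulans reads, a share of 50.1% ± 0.677 (SD, n = 3). Regions of 671 and 980 bases had shares of 49.9% ± 1.18 and 50.2% ± 1.97. In each of them single libraries lay on either side of an even share, and none was called (edgeR adjusted p of 0.96, 0.94 and 0.92). The order of nearness rests on differences smaller than the spread between libraries.

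Called shares by structure were mostly near those of matched single regions. Fused regions on opposite strands were called in 77 of 177 cases (43.5%, 95% exact binomial interval 36.1% to 51.1%), against 39.2% in matched single regions. Those whose both ends differed were called in 46 of 103 (44.7%, 34.9% to 54.8%), against 34.9%. Internal fused regions were called in 67 of 253 (26.5%, 21.2% to 32.4%), against 28.1% in matched internal single regions. Among regions tested and matched, calls were made in 27.9% of those with differing 5′ ends, against 29.8% in single regions, and in 28.4% of those with differing 3′ ends, against 26.3%. With 2 forms the shares were 34.6% against 32.97%, and with 3 forms 33.6% against 32.7%. Regions with 4 or more forms were called in 24 of 48 cases (interval 35.2% to 64.8%), against 32.4%, with 12 in each direction. Of the 4 intervals printed here, that of the regions with 4 or more forms did not hold the single value. The intervals cover all tested regions, whereas single values are matched to those that could be matched. These were 173 on opposite strands, 252 internal and 45 with 4 or more forms, with fused shares of 43.9%, 26.6% and 48.9%. The 51 calls among the 150 tested fused regions placed on blocks with 1 form had D. melanogaster higher in 42 and D. simulans in 9, where 65.8% of all calls were toward D. melanogaster. Of the matched regions among them 34.5% were called, against 30.7% of single regions.

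Where a fused region and single regions of its gene were both deep enough, they lay on the same side in most cases. In 341 such cases, 101 fused regions were called, where the background over all tested regions was 35.6%, and 83 of them (82.2%) lay on the side of the median single region of the gene. Of the 240 not called, 151 (62.9%) did. The median absolute difference between the fused region's ratio and the gene's median was 0.26, and it reached 1 or more in 22 cases. Called fused regions on the other side numbered 18. The median difference, fused minus gene, was -0.06, -0.10 and -0.03 in the 3 libraries, toward D. simulans in each. Single regions were not set against their own genes in this way.

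The kinds of read placement gave the same direction in most members that both called. With enough reads of both kinds in 1151 fused regions, 230 (20.0%) were called by each kind alone, where the background over all regions was 19%. Of the 1151, the direction was the same in 206, where the background was 17.4%, with D. melanogaster higher in 134 and D. simulans in 72. It was opposite in 24, where the background was 1.53% of regions tested. Taken over regions called by each kind, opposite directions made up 10.4% in fused regions and 8.08% over all regions. In single regions under the same limits they made up 8.90%. The alleles could be told apart less often in fused regions. The median region had 18.1% ± 0.223 of its reads unassigned in fused and 15.0% ± 0.370 in matched single regions (SD, n = 3), at matched identity.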

How the data were processed

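Per the file headers, the authors deposited raw counts per exonic region in 10 match classes, percent identity and percent of altered positions, region lengths and a coverage signal. Bowtie, a read aligner, stands in the tool list of the submitters' processing notes. For the aligner's version, the genome build and the annotation, the sources used here name nothing. Classes were summed to 4 per allele and 2 unassigned. The edgeR 4.0.16 quasi-likelihood test (R 4.3.3) was run over all regions with a mean of 20 or more assigned reads, with the library as block, 1 library size for both alleles and Benjamini-Hochberg adjustment over 33303 regions. DESeq2 1.42.0 was an alternative. The block is the RNA pool shared by both alleles. The edgeR procedure and the matching were tested on simulated data. Standard errors are the fitted ratio divided by the square root of F. They can be smaller than the change in a ratio when 1 replicate is left out. Ratios per library used a pseudocount of 0.5. Single regions were weighted to the fused regions' numbers per class of length (8), identity (6) and, for ratios, depth (8). Intervals are 95% exact binomial intervals, and intervals and floors cover counting error only. SDs over libraries cover the spread between libraries and not that between regions. The labels mention no molecular identifiers.

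Regions named are the 5 per direction with the largest ratio under the read limits given, the 5 with the most reads, the 3 called per direction with the most reads, the 3 of 1000 or more reads nearest balance and the 3 per direction with no read of the other allele. Identifiers are printed for the first of the lists by ratio and by reads among called regions. Regions were placed in BDGP6 after the data were seen. Members, lists and tests were chosen with earlier results of these data known. Sequences were not printed, as no genome was used here.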

Additional observations from a re-analysis of the deposited data

Results flagged for a closer look

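Unassigned reads, which entered no allele comparison, marked 4 fused regions with a mean of 20 or more unassigned reads and under 1 assigned read per library. These were 4 of 2778 fused regions, against 9 of the 32991 single regions under the same limits. The 4 fused regions had lengths of 164, 247, 93 and 162 bases and identities of 97.57% to 98.92%. The first had 47, 47 and 36 unassigned reads in the 3 libraries and the third 28, 24 and 24.

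The allele ratio of fused regions with 4 or more exon forms had a median below 0 in each library, at -0.01, -0.05 and -0.14 with a mean of -0.065 (48 regions), while that of regions with 2 forms was above 0 in each, at 0.12, 0.06 and 0.07. The difference was not tested.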

How the results depend on the processing

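The level difference stayed positive when matched and negative within genes under each alternative run for it (0.19 to 0.47 and -0.30 to -0.16). The 717 calls in fused regions, 38.7% of those tested, became 347 and 345 with DESeq2 (library totals and its own size factors). They became 465 with reads placed on one genome only, where 1233 regions were tested, and 213 against a minimum log2 ratio of 0.5. In this order these were 18.7%, 18.6%, 37.7% and 11.5% of the tested fused regions. Over all tested regions the shares were 17.8%, 17.0%, 38.4% and 11.2%, and 35.6% in the main fit. Toward D. melanogaster the 484 calls became 240, 186, 321 and 158 in the same order, and 299 with reads placed on both genomes. That last setting tested 1641 fused regions and called 29.9% of them in either direction, against 26.0% over all regions. Toward D. simulans the 233 became 107 with DESeq2 on library totals, 144 with reads on one genome, 55 against the minimum ratio and 151 without the replicate block. The last fit gave 488 calls in all (26.4%, against 24.1% over all regions). Shares over all regions by direction are not given for these settings, so the counts by direction show no excess or lack. Leaving out 1 replicate gave 548 to 569 calls, 371 to 391 toward D. melanogaster and 177 to 184 toward D. simulans. These calls were 29.8% to 30.5% of the tested fused regions, against 27.9% over all regions. The difference in percent called, 3.70 points, was 7.87 without matching, 6.75 with 100 or more reads and 1.40 with DESeq2. Its D. melanogaster part, 4.02, was 6.31 without matching and 1.70 with DESeq2. The pooled share difference of 1.86 points was -0.60 without mitochondrial regions, 0.51 with the nearest single region, 0.34 with reads placed on both genomes and 6.79 with reads placed on one genome. The cause was not tested.

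Named fused regions that changed side were F15919_SI (0.53 with reads on both genomes), the 1374-base region (29 D. melanogaster and 5 D. simulans reads on both genomes, too few to fit) and, with reads on one genome, the regions of 402 bases (-0.15), 1359 bases (0.13), 456 bases (-0.74) and 671 bases (0.053). Of those nearest balance, the 456-base region was -0.082 with TMM, -0.091 with DESeq2's size factors and -0.012 to 0.025 without 1 replicate. The 980-base region was -0.080 with TMM, -0.087 with DESeq2's size factors, -0.0022 without the block and -0.056 to 0.042 without 1 replicate, and the 671-base region was -0.028 to 0.034 without 1 replicate. The mitochondrial, within-gene and structure comparisons were chosen after seeing the data. Depth limits the ratio: 927 members were untested, and the median standard error was 0.40 at 20 to 30 reads and 0.05 at 3000 or more.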
